A study of Homo sapiens with 6 samples.

Results

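The SR and HNRNP splicing factor genes were examined in LM3 cells, an established human hepatocellular carcinoma (HCC) cell line, after knockdown of ZNF706, a gene for a C2H2-type zinc finger protein. Members were chosen by symbol alone, as SRSF followed by a number or HNRNP followed by a letter and further letters or digits, without the ending that marks a pseudogene. These symbols named 34 of the 33007 genes in the table, 12 SRSF and 22 HNRNP genes. RNA-seq was done on 3 vector control samples, labelled control, and 3 samples of cells with stable ZNF706 knockdown, all of the same cell line and all labelled WT for genotype. The knockdown was made with a lentiviral short hairpin RNA, and which hairpin the sequenced cells carried is not given in the sources used here. The libraries held 62684076, 64713764 and 63054445 counts for control cells and 68548419, 65861994 and 69057423 for knockdown cells. The labels do not say that the samples of a group were separate cultures, so the p-values measure the spread between these samples, which may be technical.

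SR proteins bind exonic enhancer sequences through RNA recognition motifs and recruit the spliceosome through a tail rich in arginine and serine, the RS domain. HNRNP proteins coat nascent transcripts, often hold back the splicing of the exons they bind, and many carry a glycine-rich tail. The families can act against each other at the same exon, and many of their own transcripts are regulated by an exon or intron that leads to nonsense-mediated decay. Gene-level counts sum all transcripts of a gene, so the values below hold no measurement of splicing or isoform use.

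The targeted gene was checked first. ZNF706 had 3211, 3504 and 3357 counts in control cells, against 2350, 2068 and 2298 after knockdown, with no overlap between the groups. With TMM scaling its level was 53.9 ± 1.76 CPM (SD, n = 3), counts scaled to library size, in control cells and 32.4 ± 1.39 (SD, n = 3) after knockdown, a log2 fold change of -0.73 (standard error, SE, 0.050; edgeR adjusted p = 3.7e-05, quasi-likelihood test). The liver label was read against 6 hepatocyte and HCC genes, which were close to 0 in every sample. ALB, the gene for albumin, was at 3.57 FPKM (fragments scaled to gene length and library size) or less, and the 6 genes summed to between 2.56 and 9.20 FPKM. ALB, AFP, TTR and GPC3 were lowest in control replicate 1 and knockdown replicate 3, while APOA1 and SERPINA1 were not. ALB had 189 and 138 counts there, against 587 to 899 in the other samples. COL1A2, a fibroblast marker, had 117 and 119 counts there, against 8 or fewer. Whether this difference across the groups bears on the results below was not tested. The epithelial keratins KRT8 and KRT18 were high in all 6 samples, at 190 to 207 and 258 to 283 FPKM, while EPCAM and CDH1 did not reach 0.6 FPKM. Of the immune markers, PTPRC was at 0.01 FPKM or less, and CD68, the most abundant, was at 10.4 to 10.7 FPKM in control and 16.5 to 18.1 FPKM in knockdown samples. The fibroblast markers summed to between 7.62 and 7.84 FPKM in control and between 9.47 and 9.63 FPKM in knockdown samples, of which COL1A1 held most, and COL1A2 was at 0.15 FPKM or less. The endothelial markers summed to between 1.79 and 2.06 FPKM in control and between 1.43 and 1.69 FPKM in knockdown samples, with CDH5 the most abundant in the control samples and VWF at 0.03 FPKM or less. Whether the changes of CD68 and COL1A1 bear on the results below was not tested, and in bulk RNA a change in the cells present and a change in RNA per cell cannot be told apart.

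After ZNF706 knockdown the SR and HNRNP genes changed in both directions. Of the 34 genes, 32 had enough counts to be tested. Of these, 17 were called at an adjusted p below 0.05 in edgeR (quasi-likelihood test, Benjamini-Hochberg adjustment over the 18390 genes tested), 7 higher and 10 lower. Among all tested genes 22.8% were called, 10.4% higher and 12.4% lower, against 53.1% of the members. The members are abundant genes. Among the 461 tested genes with a CPM at or above the members' median, a comparison chosen after seeing the data, 44.9% were called, with 41 higher and 166 lower. The changes were small. The median log2 fold change of the tested members was -0.05 (-0.07 for SRSF and -0.04 for HNRNP genes, 0.0095 over all tested genes), and their values ran from -0.37 for SRSF2 to 0.60 for SRSF5. With the thresholds that the study put on DESeq2 values, an unadjusted p below 0.05 and a log2 fold change of 0.3 or more in either direction, applied here to the edgeR values, 3 members were higher and 3 lower, where 15.5% of all tested genes passed. Applied to DESeq2 values they gave 4 higher and 3 lower, with SRSF8 as the further gene. The scaled values of 22 of the 32 members did not overlap between the groups, where 39.4% of all tested genes had no overlap. Among the 461 abundant genes 269 had no overlap. All 7 rises were called with each sample left out in turn, while the number of falls called was 5 without control replicate 2 and 4 without knockdown replicate 2. Over all genes the calls went from 4192 to 3138 and 2648 in these fits with fewer samples. The number of falls also depended on the scaling. With library size alone 11 members were called higher and 5 lower, where 2742 of all tested genes were higher and 1518 lower. With each library's trend on GC content removed 12 members were called higher and 7 lower. Over all tested genes 1921 were then higher and 2019 lower, against 1906 and 2286 in the first fit.

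**Figure D1:**
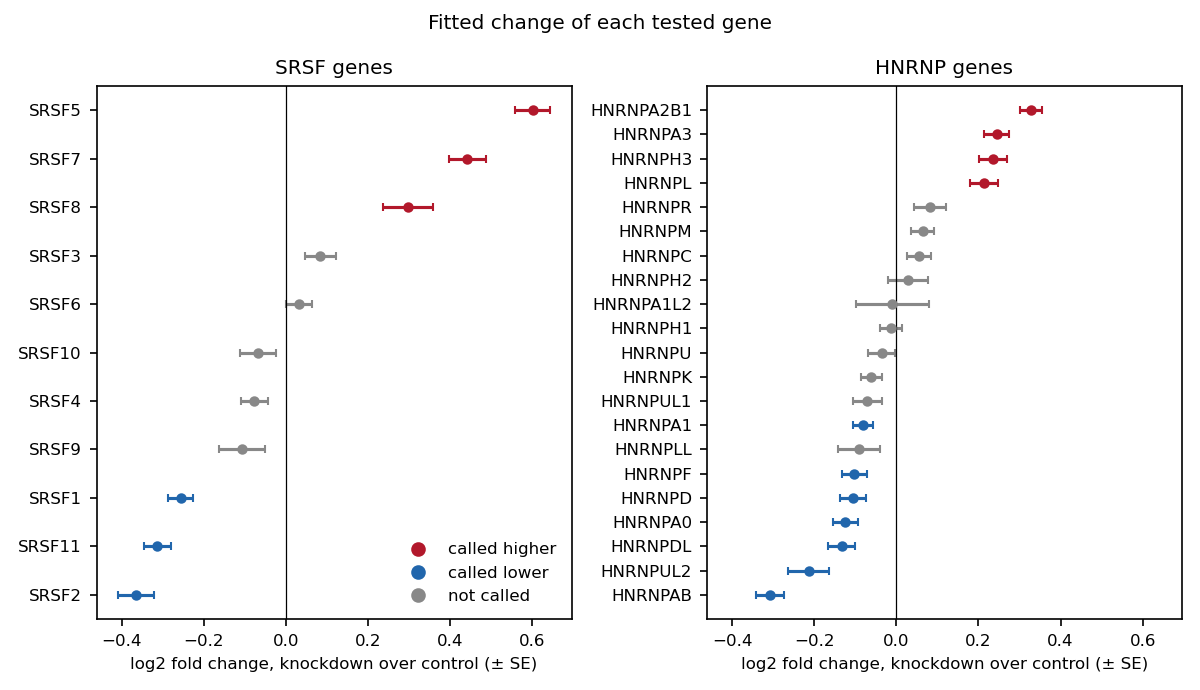
Log2 fold change of each tested SRSF gene (left) and HNRNP gene (right), ZNF706 knockdown over control, with the standard error as bars, from 3 samples per group. Red points were called higher and blue points lower at an adjusted p below 0.05. SRSF5 lies farthest to the right at 0.60 and SRSF2 farthest to the left at -0.37.

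The SRSF genes split evenly. Of 11 tested, SRSF5, SRSF7 and SRSF8 rose, SRSF2, SRSF11 and SRSF1 fell, and 5 were not called. With the GC trend removed the split was uneven, with 5 called higher and 3 lower, where 1921 of all tested genes were higher and 2019 lower. A stretch of coding sequence shows what the family shares. In the stretches that follow, each the 60 bases (20 codons) with the most arginine-serine or serine-arginine codon pairs, the capitals mark the codons of those pairs. Sequences and positions are from GENCODE release 29 (GRCh38), written 5′ to 3′ on the gene's strand, and those of SRSF5 and SRSF7 span an intron.
SRSF5, chr14:69771104-69771251, plus strand: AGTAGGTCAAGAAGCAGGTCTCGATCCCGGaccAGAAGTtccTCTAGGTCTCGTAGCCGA
SRSF7, chr2:38748602-38749536, minus strand: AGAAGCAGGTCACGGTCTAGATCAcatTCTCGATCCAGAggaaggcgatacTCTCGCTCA
SRSF8, chr11:95067614-95067673, plus strand: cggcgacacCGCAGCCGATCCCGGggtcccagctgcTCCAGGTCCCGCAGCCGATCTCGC
SRSF2, chr17:76736389-76736448, minus strand: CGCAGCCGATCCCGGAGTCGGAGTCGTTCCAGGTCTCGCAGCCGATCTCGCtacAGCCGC
SRSF11, chr1:70244685-70244744, plus strand: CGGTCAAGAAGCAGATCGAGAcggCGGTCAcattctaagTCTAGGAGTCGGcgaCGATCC
SRSF1, chr17:58005484-58005543, minus strand: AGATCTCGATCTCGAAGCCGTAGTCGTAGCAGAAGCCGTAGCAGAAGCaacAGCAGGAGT
SRSF9, chr12:120462085-120462144, minus strand: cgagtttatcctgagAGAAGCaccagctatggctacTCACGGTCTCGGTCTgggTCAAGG
The windows of SRSF1 and SRSF2 each hold 17 such pairs and that of SRSF5 holds 15, those of SRSF7, SRSF8 and SRSF11 hold 12, 11 and 11, whereas the window of SRSF9, an SR protein with a short RS domain, holds 6. Over the whole coding sequence the number ran from 9 pairs in SRSF9 to 113 in SRSF4 among the SRSF genes and from 1 to 12 among the HNRNP genes. SRSF5 and SRSF2 have 52 pairs each and changed in opposite directions.

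SRSF5, an SR protein that binds exonic enhancers and is known to respond quickly to growth and differentiation signals, changed most. It had 6528, 6534 and 6080 counts in control cells, against 10881, 9966 and 11355 after knockdown. Every knockdown sample lay far above every control sample, and the level went from 102 ± 3.23 to 155 ± 6.85 CPM (SD, n = 3 each). The log2 fold change was 0.60 (SE 0.043, edgeR adjusted p = 4.2e-05), a rise of 51.6%. SRSF7, which carries a zinc knuckle and also acts as an adaptor for mRNA export, had 7600, 8227 and 7029 counts in control cells, against 11626, 11024 and 11754 after knockdown. Its groups did not overlap either, and its knockdown samples lay close together at 166 ± 1.83 CPM (SD, n = 3) against 122 ± 7.47 in control. The log2 fold change of SRSF7 was 0.44 (SE 0.045, edgeR adjusted p = 0.00021). SRSF8, a close relative of SRSF2 whose coding sequence lies in a single exon, had 1900, 1866 and 1769 counts in control cells, against 2388, 2466 and 2686 after knockdown. It was the least abundant tested member of its family, and it rose by 0.30 on the log2 scale (SE 0.062, edgeR adjusted p = 0.0075).

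SRSF2, also known as SC35 and a marker of nuclear speckles, fell most in the family and was its most abundant member per length. It had 32512, 30606 and 29092 counts in control cells, against 27756, 25617 and 26025 after knockdown. All knockdown samples lay below all control samples although their libraries held more counts, and the log2 fold change was -0.37 (SE 0.044, edgeR adjusted p = 0.00047). On the opposite strand, MFSD11 shares 36.7% of the exon bases of SRSF2, and whether the counting used strand is not given in the sources used here. MFSD11 had 27916 counts over the 6 samples against 171608 for SRSF2, and its log2 fold change was 0.01. SRSF11, a nuclear SR protein known as p54, had 15155, 15396 and 15434 counts in control cells, against 14155, 13236 and 13636 after knockdown. The control samples hardly varied, and every knockdown sample was lower, with a log2 fold change of -0.31 (SE 0.033, edgeR adjusted p = 0.00024). With the GC trend removed SRSF11 was at -0.20 and still called. SRSF1, the founding SR protein, which promotes the use of nearby 5′ splice sites and acts as an oncoprotein when overexpressed, had 36817, 37536 and 35701 counts in control cells, against 34983, 33592 and 33574 after knockdown. The groups of SRSF1 did not overlap, and it fell by 0.26 on the log2 scale (SE 0.030, edgeR adjusted p = 0.00043). An unnamed gene, AC015813, covers 56.6% of the exon bases of SRSF1 on the same strand with 2002 counts over the 6 samples, against 212203 for SRSF1.

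The remaining SRSF genes were not called. SRSF3, the smallest SR protein, SRSF6, a relative of SRSF5, SRSF10, which represses splicing in its dephosphorylated form, SRSF4, whose RS domain is the longest of the family, and SRSF9 had log2 fold changes of 0.08, 0.03, -0.07, -0.08 and -0.11 in that order, with standard errors of 0.032 (SRSF6) to 0.056 (SRSF9). In SRSF3 and SRSF4 the groups still did not overlap, and with the GC trend removed SRSF10 was at 0.01. Under other settings SRSF3 was called higher, at 0.14 on the log2 scale with library size alone, 0.13 on FPKM and 0.17 with the GC trend removed, and so was SRSF6 at 0.12 with the GC trend removed. SRSF9 was called lower without control replicate 1, at -0.18. SRSF9 varied most between control samples, from 167 to 198 CPM, and shares 46.2% of its exon bases with GATC on the opposite strand, which changed by 0.30 on the log2 scale (edgeR adjusted p = 0.026). SRSF12, a relative of SRSF10, was too low to test, with 3, 0 and 0 counts in control cells, against 0, 7 and 4 after knockdown.

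The HNRNP genes divided into 4 rises, 7 falls and 10 genes without a call among 21 tested. With library size alone they gave 7 rises and 2 falls, and with the GC trend removed 7 rises and 4 falls. Over all tested genes 1906 were higher and 2286 lower at first. With library size alone these were 2742 and 1518, and with the GC trend removed 1921 and 2019. A glycine-rich stretch is shown here for 2 of the rises in the A and B group (HNRNPA2B1 and HNRNPA3), for HNRNPL, for HNRNPAB, which fell most, and for HNRNPA1, the most abundant member. Each line holds the 60 bases with the most glycine codons, which are in capitals, from GENCODE release 29 (GRCh38). Those of HNRNPA3 and HNRNPA1 span an intron.
HNRNPA2B1, chr7:26193606-26193665, minus strand: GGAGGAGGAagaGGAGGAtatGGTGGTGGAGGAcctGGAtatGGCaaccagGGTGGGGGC
HNRNPA3, chr2:177216762-177216909, plus strand: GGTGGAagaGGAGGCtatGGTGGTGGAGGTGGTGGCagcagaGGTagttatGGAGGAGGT
HNRNPL, chr19:38849700-38849759, minus strand: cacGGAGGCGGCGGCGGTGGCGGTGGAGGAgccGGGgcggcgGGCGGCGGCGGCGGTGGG
HNRNPAB, chr5:178209387-178209446, plus strand: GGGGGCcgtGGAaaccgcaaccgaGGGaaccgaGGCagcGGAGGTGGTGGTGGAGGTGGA
HNRNPA1, chr12:54282659-54282852, plus strand: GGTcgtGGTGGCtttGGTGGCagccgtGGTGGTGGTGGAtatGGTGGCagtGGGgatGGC
The stretches hold 14, 14, 16, 12 and 13 glycine codons of 20 in that order. In HNRNPL they stand in blocks broken only by alanine codons, while in HNRNPA2B1 and HNRNPA3 they are broken up by tyrosine, arginine and other codons. Over the whole coding sequence glycine made up 27.2% of the codons of HNRNPA3 and 25.2% of those of HNRNPA2B1, both of which rose, and 26.2% of those of HNRNPA0, which was called lower.

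HNRNPA2B1, which binds UAG-containing sequences in pre-mRNA and sorts RNAs for transport, rose most in the family. It had 80909, 80525 and 76737 counts in control cells, against 113320, 107243 and 110889 after knockdown. The groups were far apart and the spread within each was small, at 1275 ± 29.4 CPM in control and 1600 ± 15.6 after knockdown (SD, n = 3 each). The log2 fold change was 0.33 (SE 0.027, edgeR adjusted p = 7.5e-05). CBX3, which starts next to it on the opposite strand and shares 3.97% of its exon bases, had a log2 fold change of 0.0055. HNRNPA3, a close relative of HNRNPA1 and HNRNPA2B1, had 34415, 33517 and 33361 counts in control cells, against 45233, 43098 and 44734 after knockdown. Its log2 fold change was 0.24 (SE 0.030, edgeR adjusted p = 0.00054), and the 3 knockdown samples lay within 639 to 645 CPM.

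HNRNPH3, of the group that binds runs of guanine, had 14877, 15405 and 15281 counts in control cells, against 19471, 19472 and 20565 after knockdown. It rose without overlap between the groups, by 0.24 on the log2 scale (SE 0.035, edgeR adjusted p = 0.0012). HNRNPL, which binds CA-rich sequences and is known for its control of CD45 splicing, had 19048, 19368 and 19732 counts in control cells, against 25710, 24098 and 24981 after knockdown. Again each knockdown sample exceeded each control sample, and the log2 fold change was 0.21 (SE 0.033, edgeR adjusted p = 0.0016). Their relatives HNRNPH1, HNRNPH2 and HNRNPLL were not called.

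HNRNPAB, a relative of HNRNPD that binds RNA in nucleus and cytoplasm, fell most among the HNRNP genes. It had 26001, 27094 and 26848 counts in control cells, against 23515, 23234 and 24843 after knockdown. The groups did not overlap even before scaling, and the log2 fold change was -0.31 (SE 0.034, edgeR adjusted p = 0.00029). HNRNPUL2, a relative of the scaffold protein HNRNPU, had 13354, 11937 and 12492 counts in control cells, against 12491, 11360 and 12332 after knockdown. The raw counts overlapped, the scaled values did not, and the log2 fold change was -0.21 (SE 0.050, edgeR adjusted p = 0.013). Without knockdown replicate 2 it was at -0.19 and no longer called (edgeR adjusted p = 0.070). HNRNPUL2 also shares 44.1% of its exon bases with the read-through gene HNRNPUL2-BSCL2 on the same strand, between which the counting could have split reads. The read-through gene had 13681 counts over the 6 samples against 73966 for HNRNPUL2 and changed by 0.44 on the log2 scale (edgeR adjusted p = 0.058).

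The other 5 HNRNP falls were slight, from -0.13 to -0.08 on the log2 scale. HNRNPDL fell by 0.13 and its relative HNRNPD, also known as AUF1, which binds AU-rich elements and controls mRNA decay, fell by 0.11. HNRNPA0, which also binds AU-rich elements, HNRNPF, of the guanine-binding group, and HNRNPA1 fell by 0.12, 0.10 and 0.08. Their adjusted p from edgeR ran from 0.016 to 0.041. None was called in every fit that left out a sample: HNRNPA0 and HNRNPDL were called in 3 of 6, HNRNPF in 1, and HNRNPD and HNRNPA1 in 0. Knockdown replicate 2 and control replicate 2 were among the samples without which all 5 lost the call, with adjusted p from edgeR of 0.062 to 0.124 and 0.052 to 0.123. Their log2 fold changes were about as large in these fits, from -0.14 to -0.08 without knockdown replicate 2 and from -0.12 to -0.09 without control replicate 2. Over all HNRNP genes, 1 fall was called without knockdown replicate 2, 2 without control replicate 2, and 4 with each of the other samples left out. With library size alone none of the 5 was called by edgeR (adjusted p of 0.12 to 0.46), and with the GC trend removed HNRNPD was at 0.01 on the log2 scale.

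HNRNPA1, which binds splicing silencers and shuttles with mRNA, was the most abundant member per length, and HNRNPK, which binds cytosine-rich sequences through KH domains, came next by the mean FPKM over all 6 samples. HNRNPA1 had 129305, 131665 and 131853 counts in control cells, against 138260, 134396 and 139286 after knockdown. These raw counts were higher in every knockdown sample, as were the total counts, and after scaling the level was 2103 ± 40.1 CPM in control and 1988 ± 16.1 after knockdown (SD, n = 3 each). With library size alone as the scaling, the log2 fold change of HNRNPA1 was -0.03 (edgeR adjusted p = 0.46). HNRNPK had 62222, 63497 and 61979 counts in control cells, against 67420, 65011 and 67145 after knockdown, a log2 fold change of -0.06 (SE 0.025) that was not called. A further 9 tested HNRNP genes were not called. Their log2 fold changes were 0.08 for HNRNPR, a relative of SYNCRIP, 0.06 for HNRNPM, which binds sequences rich in guanine and uridine, 0.06 for HNRNPC, which binds uridine tracts, 0.03 for HNRNPH2, and -0.01 for HNRNPA1L2 and HNRNPH1. HNRNPU, a nuclear scaffold protein that binds RNA and chromatin, was at -0.04, its relative HNRNPUL1 at -0.07 and HNRNPLL, the relative of HNRNPL, at -0.09. The values of HNRNPH1, HNRNPU and HNRNPA1L2 changed sign with library size alone as the scaling and with the GC trend removed, and that of HNRNPLL changed sign with the GC trend removed. HNRNPH1 was then called higher, at 0.10 on the log2 scale, as were HNRNPR at 0.20 and HNRNPC at 0.15, and HNRNPUL1 was called lower at -0.12. With library size alone HNRNPR, HNRNPC and HNRNPM were called higher, at 0.13, 0.11 and 0.12, HNRNPC and HNRNPM also on FPKM and HNRNPM also by DESeq2, and HNRNPLL was called lower without knockdown replicate 1, at -0.15. HNRNPA1L2 is a copy of HNRNPA1 with a near-identical sequence, between which the counting could have split reads. HNRNPH2 has the same limit, as it shares 16.3% of its exon bases with the read-through gene RPL36A-HNRNPH2 on the same strand. That gene had 8972 counts over the 6 samples against 38005 for HNRNPH2. HNRNPU shares 15.6% of its exon bases with COX20 on the opposite strand, which had 12708 counts against 377537. HNRNPCL4 was not tested, with 0 counts in all control samples and 2, 0 and 0 after knockdown.

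**Figure D2:**
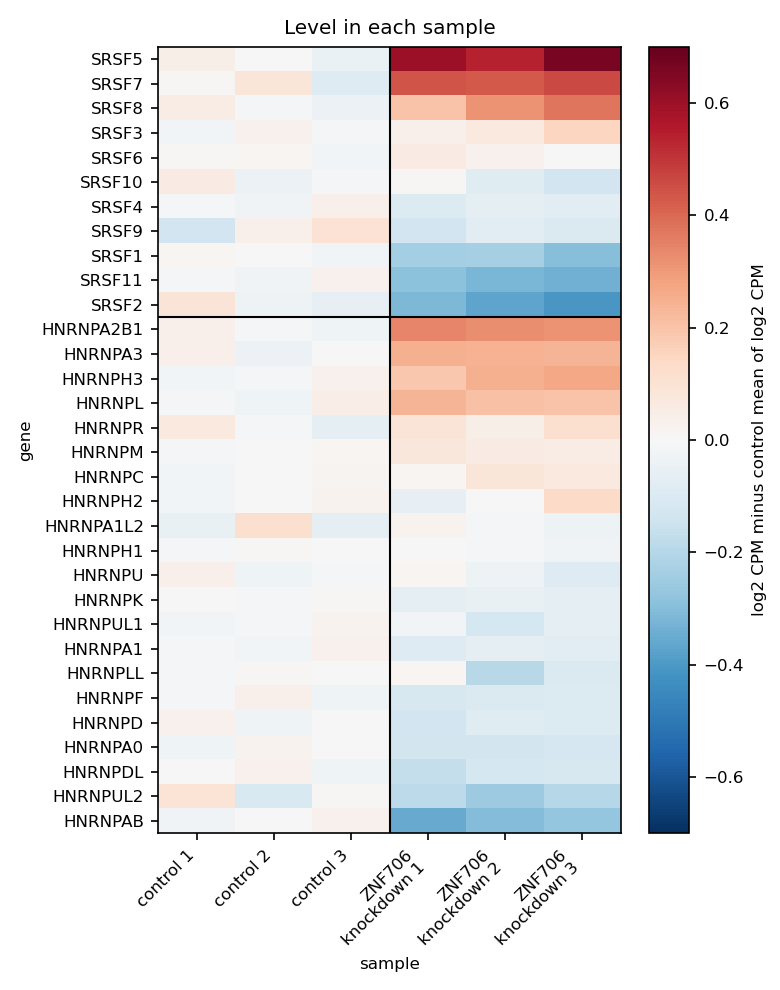
Heat map of the 32 tested genes (rows) in the 6 samples (columns), where colour gives log2 CPM minus the mean log2 CPM of the 3 control samples. The rises of SRSF5, SRSF7 and HNRNPA2B1 and the falls of SRSF2, SRSF11 and HNRNPAB are seen in each of the 3 knockdown samples.

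Levels between genes were compared with the deposited FPKM values, which are per length. Levels spanned a wide range within each family. HNRNPA1 was at 356 FPKM in control and 348 FPKM in knockdown cells, HNRNPAB at 174 and 146, and HNRNPK at 170 and 169. In the SRSF family SRSF2 was at 143 and 115 FPKM and SRSF1 at 87.9 and 76.1. HNRNPA2B1 moved up in that order, from 119 to 154 FPKM, past HNRNPAB. At the lower end, SRSF8 was at 6.34 FPKM in control and 8.06 FPKM in knockdown cells, and HNRNPA1L2 at 7.57 and 7.77. The most abundant SRSF genes, SRSF2 and SRSF1, were among the falls, and the 3 rises in that family started from control levels of 6.34 to 26.1 FPKM. As a family the SRSF genes took 0.271%, 0.267% and 0.263% of all counts, a scaling by library size alone, in control cells, against 0.264%, 0.261% and 0.259% after knockdown, which overlapped. With TMM scaling their summed level was 2749, 2722 and 2698 CPM in control cells, against 2584, 2564 and 2558 CPM after knockdown, lower without overlap. The HNRNP genes together took 1.11%, 1.09% and 1.09% in control cells, against 1.16%, 1.16% and 1.15% of all counts after knockdown, which did not overlap. With TMM scaling the difference was smaller, at 11242, 11097 and 11225 CPM in control cells, against 11361, 11361 and 11336 CPM after knockdown, again without overlap. HNRNPA2B1 alone held 569623 counts over the 6 samples. It went from 1275 CPM in control to 1600 CPM after knockdown, a larger rise than that of the family's summed CPM. The family sum is therefore no measure of its single genes, of which 4 were called higher and 7 lower.

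**Figure D3:**
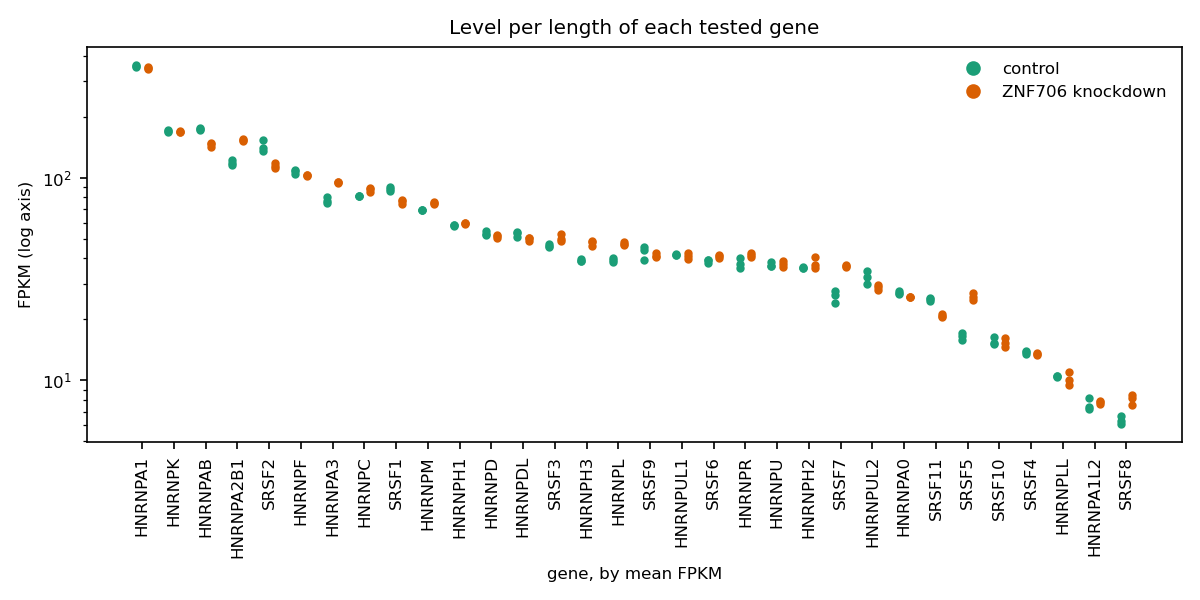
Deposited FPKM values (log axis) of the 32 tested genes in each of the 3 control (green) and 3 ZNF706 knockdown (orange) samples, ordered by the mean over all samples. HNRNPA1 leads at 356 FPKM in control cells, and the orange points of HNRNPA2B1, HNRNPA3, SRSF7 and SRSF5 lie above the green ones.

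Related genes can stand in for each other at the same target, so the balance between them was followed with the ratio of raw counts within each sample, which no scaling between samples can move. In all, 12 pairs were compared. With 3 samples against 3 the exact permutation test cannot give a two-sided p below 0.1, and so none of the 12 could pass 0.05. The ratio of SRSF5 to its relative SRSF6 was 0.478, 0.462 and 0.457 in control cells, against 0.678, 0.662 and 0.735 after knockdown, a 1.49-fold difference of the means without overlap (exact permutation p = 0.1). Against SRSF4 it differed 1.60-fold, and SRSF7 against SRSF3 1.28-fold, each without overlap. SRSF8 relative to SRSF2 was 0.0584, 0.0610 and 0.0608 in control cells, against 0.0860, 0.0963 and 0.103 after knockdown, 1.58-fold apart. The ratio of HNRNPA2B1 to HNRNPA1 was 0.626, 0.612 and 0.582 in control cells, against 0.820, 0.798 and 0.796 after knockdown, 1.33-fold apart, and HNRNPA3 against HNRNPA1 was 1.25-fold apart. HNRNPL over HNRNPLL, HNRNPH3 over HNRNPH1, HNRNPD over HNRNPAB and HNRNPH1 over HNRNPF differed 1.24-fold, 1.19-fold, 1.15-fold and 1.06-fold without overlap. By contrast, SRSF9 over SRSF1 (1.11-fold, exact permutation p = 0.2) and HNRNPD over HNRNPDL (1.02-fold, exact permutation p = 0.5) overlapped between the groups. The pairs and the gene put first were chosen with these values known, and the first gene was in most of them one called higher, so the common direction of the 10 pairs is fixed by that choice and is no result.

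**Figure D4:**
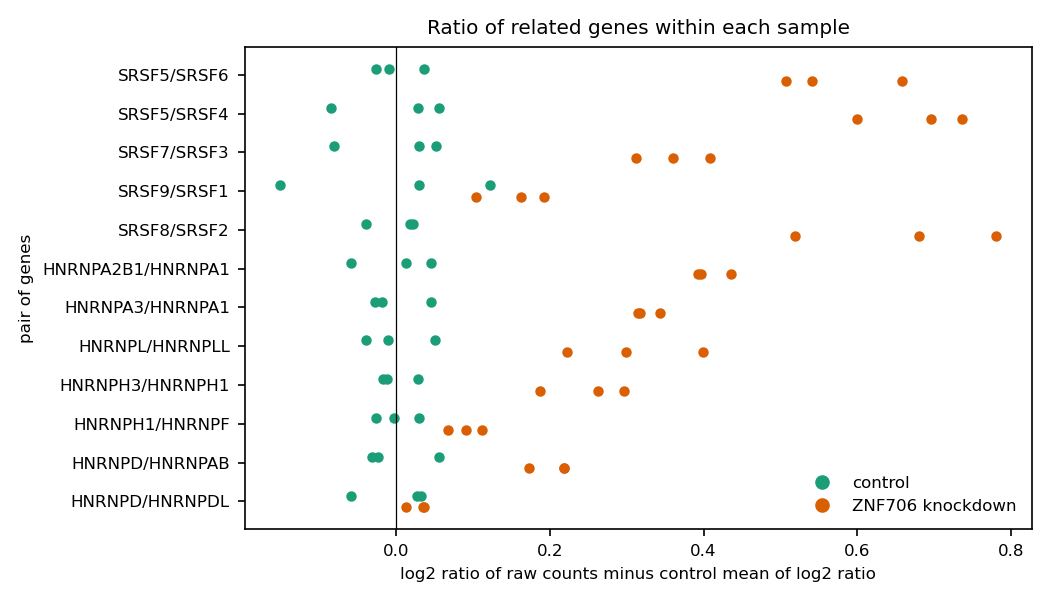
Ratio of raw counts of related genes within each sample, as log2 minus the control mean, for 12 pairs in 3 control (green) and 3 ZNF706 knockdown (orange) samples. The groups are apart for 10 pairs, most for SRSF5 over SRSF4 and SRSF8 over SRSF2, and overlap for SRSF9 over SRSF1 and HNRNPD over HNRNPDL.

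Some members have near-identical processed copies in the genome, between which reads can be split. The table names 42 pseudogenes of HNRNPA1, whose counts came to 4.76% of those of the gene, 11 of HNRNPA3 (2.62%), 6 of HNRNPC (2.97%), 3 of HNRNPK (2.07%) and 2 of HNRNPL (1.67%). With these counts added to their genes, HNRNPA1 lost its call (log2 fold change -0.08, adjusted p = 0.051 from edgeR) and HNRNPA3 was at 0.25 on the log2 scale (edgeR adjusted p = 0.00051). The other called members kept their calls.

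Transcripts with a premature stop are listed for many of these genes, and the counts cannot separate them. The table lists a transcript type of nonsense-mediated decay for 21 of the 32 tested members (65.6%), for 10 of 11 SRSF genes (90.9%) and for 11 of 21 HNRNP genes (52.4%), against 37.4% of the 13315 tested genes with a coding transcript. Retained introns are listed for 71.9% of the tested members and 56.0% of those genes. The genes compared were not matched for level or for the number of transcripts listed. In GENCODE release 29, 10 of the 34 members, 6 SRSF and 4 HNRNP genes, have an exon in which the reading frame of a decay transcript ends. No coding transcript of the gene has coding sequence in that exon, though its use as untranslated sequence was not checked. The coding part of that exon is given here for SRSF7, SRSF3, SRSF11 and HNRNPL (GRCh38). A read from it is counted for the gene, although no coding transcript has coding sequence there. SRSF7 has 3 such annotated exons, of which 2 overlap, and SRSF3 has 2. For both genes the stretch is from the longest exon, which is not the exon with the longest coding part. The stop codon is in capitals.
SRSF7, chr2:38749319-38749346, minus strand: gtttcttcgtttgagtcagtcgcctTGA
SRSF3, chr6:36599821-36599854, plus strand: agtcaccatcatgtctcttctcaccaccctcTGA
SRSF11, chr1:70231859-70231908, plus strand: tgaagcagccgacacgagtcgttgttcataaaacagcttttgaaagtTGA
HNRNPL, chr19:38841624-38841682, minus strand: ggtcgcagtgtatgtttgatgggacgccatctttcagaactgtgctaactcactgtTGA
SRSF7 and HNRNPL rose, SRSF11 fell and SRSF3 was not called, so genes with such an exon were found in each class. The share of reads from these exons was not analysed here.

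Most promoters of the members hold more CpG than the median promoter. For 32 of the 34 genes RefSeq's promoter table (GRCh38.p14) had an entry, with a median of 25 CpG (range 2 to 36) in the 250 bases before the start against 11 over all promoters in the table. Searched on both strands, the letters GGGCGG were found in 20 of the 32 (62.5%, against 42.3% of all promoters), CCAAT in 15 (46.9%, against 33.0%), TATAAA in 5 (15.6%, against 11.1%) and CACGTG, the E-box, in 6 (18.8%, against 6.49%). The 6 with CACGTG are all HNRNP genes. HNRNPA3 and HNRNPH3 were called higher, HNRNPD and HNRNPDL lower, and HNRNPH2 and HNRNPM were not called. The 250 bases are shown for a rise and a fall from this group, with all matches to the 4 motifs in capitals.
HNRNPA3, chr2:177212544-177212793, plus strand: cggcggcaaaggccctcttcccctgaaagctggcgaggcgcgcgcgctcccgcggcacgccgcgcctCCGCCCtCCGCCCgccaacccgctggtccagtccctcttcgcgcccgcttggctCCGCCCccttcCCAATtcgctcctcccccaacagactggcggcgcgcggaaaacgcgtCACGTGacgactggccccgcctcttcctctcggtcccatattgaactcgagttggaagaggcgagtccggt
HNRNPD, chr4:82373992-82374241, minus strand: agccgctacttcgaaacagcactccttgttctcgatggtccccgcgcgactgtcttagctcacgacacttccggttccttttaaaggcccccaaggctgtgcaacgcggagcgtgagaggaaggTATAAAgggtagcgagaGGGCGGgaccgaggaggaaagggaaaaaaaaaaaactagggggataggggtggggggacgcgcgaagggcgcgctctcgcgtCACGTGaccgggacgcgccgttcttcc
The E-box begins 71 bases before the start of HNRNPA3 and 27 bases before that of HNRNPD.

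Beyond the SR and HNRNP genes, 117 tested genes of the splicing machinery in 6 lists were counted, of which 8 were called higher and 44 lower by edgeR at an adjusted p below 0.05. Over all tested genes 10.4% were called higher and 12.4% lower. Of the 461 abundant genes described above 41 were higher and 166 lower, also a lean towards falls, but most genes of the lists were less abundant than these. In the 3 lists below with 0 genes called higher, no gene had a higher level at an unadjusted p below 0.05 in edgeR (0 in each), and DESeq2 also called 0 higher. Over all 6 lists the higher calls numbered 4 without control replicate 2 or knockdown replicate 3, 5 without control replicate 1 or knockdown replicate 2, and 16 with library size alone. The next list holds kinases that phosphorylate SR proteins and importins, of which TNPO3 carries SR proteins into the nucleus and TNPO1 and TNPO2 carry hnRNP proteins such as HNRNPA1. Its called genes all fell. Of 12 tested, 8 were lower and 0 higher, TNPO1 (-0.24), TNPO2 (-0.27) and TNPO3 (-0.15) among them, at a median log2 fold change of -0.26 (-0.17 with the GC trend removed), against 0.0095 over all tested genes. The 4 largest falls in this list were in CLK3 (-0.32), SRPK2 (-0.30), SRPK1 (-0.30) and CLK4 (-0.30), all kinases of the RS domain. SRPK1, which loads SR proteins for import from the cytoplasm, went from 211 ± 5.83 CPM in control to 171 ± 2.28 CPM in knockdown cells (SD, n = 3 each). CLK1 and CLK2, kinases of the same family as CLK3 and CLK4, were not called, at -0.05 and 0.08.

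Among SR-related proteins, which carry RS repeats without being classical SR proteins, 9 of 19 were lower and 3 higher, and the median of all 19 was -0.19 on the log2 scale (-0.12 after removal of the GC trend). RBM39, a U2AF-related factor, had a log2 fold change of -0.43, NKTR -0.42, SREK1 -0.31 and THRAP3, a component of RNA-processing complexes, 0.37. Of 11 tested hnRNP proteins with other symbols, 5 were lower and 0 higher, among them RBMX (hnRNP G) at -0.39, PTBP3 at -0.17 and SYNCRIP (hnRNP Q) at -0.13. In that fit of all samples 12.4% of all tested genes were lower. With library size alone, 2 of the 11 were called lower, as were 1518 of all 18390 tested genes. Without control replicate 1, control replicate 3, knockdown replicate 2 or knockdown replicate 3, 3 of the 11 were called lower. Over all genes 1878 of 19080, 1729 of 19175, 1500 of 19100 and 1906 of 19094 were lower in these fits, in that order. PCBP3 and RALYL were too low to test.

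For 15 other sequence-specific regulators the counts were 5 lower and 1 higher (2 and 1 with the GC trend removed), with MBNL1 at -0.26, TIA1 at -0.22, KHDRBS1 (Sam68) at 0.20 and QKI at -0.19. CELF2, NOVA1 and NOVA2 were too low to test, and RBFOX1 was not analysed here. In the core spliceosome 33 of 45 genes were not called, 8 were lower and 4 higher, and with library size alone the higher calls numbered 11 and the lower 6. Only 1 gene of this list was called higher without control replicate 1, control replicate 2, knockdown replicate 2 or knockdown replicate 3, and likewise with no filter on low counts. CWC22, SNRNP40, PRPF19 and SF1, the branch point binding protein, had the largest changes among its called genes, from -0.32 to -0.21. Of 15 genes of the exon junction complex and of nonsense-mediated decay, the pathway that removes the transcripts with premature stops described above, 9 were lower and 0 higher, where 12.4% of all tested genes were lower. SMG5 (-0.46), SMG9 (-0.35), UPF2 (-0.25) and SMG1 (-0.24) led, and 5 were called lower with library size alone or without knockdown replicate 2.

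**Figure D5:**
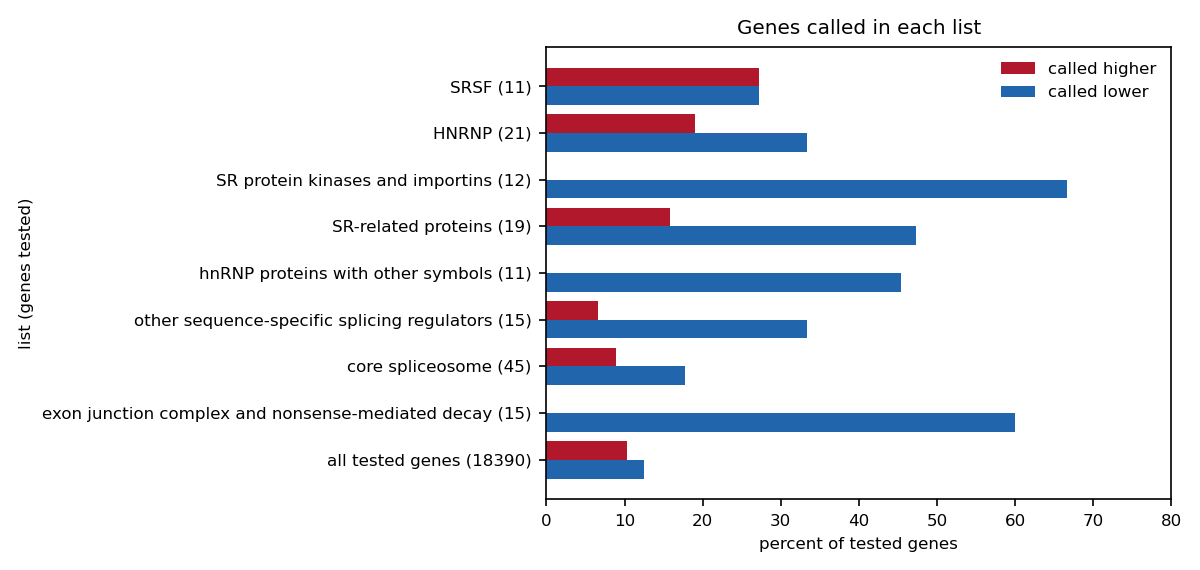
Percent of tested genes called higher (red) and lower (blue) at an adjusted p below 0.05 in the SRSF and HNRNP genes, in 6 other lists of splicing genes and among all 18390 tested genes, with the number tested in brackets. The SRSF genes have equal shares in both directions, and the kinases and importins, the hnRNP proteins with other symbols and the decay genes have no bar for higher.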

How the data were processed

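RNA from 3 vector control and 3 ZNF706 knockdown samples of LM3 cells was sequenced on the Illumina NovaSeq system. The submitters' processing notes name cutadapt 1.9, FastQC and GRCh38, and the study's methods name HISAT2 as the aligner. The counting program, its use of strand and the annotation release are not given in the sources used here. The authors deposited raw counts per gene, which are whole numbers without normalization, and FPKM values, which they divided by gene length and library size. The table also lists each gene's transcript types. Its columns with the authors' own fold changes, p-values and q-values were not used. The study called genes with DESeq2.

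Low counts were removed with filterByExpr, and TMM-scaled counts were compared with the quasi-likelihood test of edgeR 4.0.16 (R 4.3.3), two-sided, with a term for the group only and Benjamini-Hochberg adjustment over the 18390 genes tested. Standard errors were obtained from the log2 fold change and the square root of its F statistic. Alternatives were DESeq2 1.42.0, its size factors in edgeR, library size alone, no filter, a minimum mean count of 50, a replicate block, leaving out each sample, limma 3.58.1 on log2(FPKM + 0.1) for a mean FPKM of at least 1, named pseudogene counts added to each member, and each library's trend on GC content removed. At a depth of 62684076 to 69057423 counts per sample the tested member with the fewest counts, HNRNPA1L2, had 708 or more in every sample.

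Counts in every sample are given for ZNF706, for the 6 called members of each family with the largest absolute change and for the 2 with the highest mean FPKM. Of each other list, up to 4 called genes with the largest absolute change are named, apart from a gene that is not reported here, and other genes named, such as CLK1, CLK2, the importins and genes that overlap a member, were chosen after their values were seen. The members, the lists and the named-gene rule were chosen with earlier results of these data known. Sequences are from GENCODE release 29 and RefSeq (GRCh38.p14), and all 34 members overlap their position in that release.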

Additional observations from a re-analysis of the deposited data

How the results depend on the processing

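Of the 17 called members, 11 were called in the same direction in all 15 alternative fits, namely the 7 rises and the falls of SRSF2, SRSF11, SRSF1 and HNRNPAB. The other 6, all HNRNP falls, lost the call in some fit. With library size alone 11 members were higher and 5 lower (HNRNP 7 and 2), the median log2 fold change was 0.0057, and 16 genes of the other lists were higher. This scaling moved the median of all genes from 0.0095 to 0.063, and over all tested genes 2742 were called higher and 1518 lower. With the GC trend removed 12 members were higher (SRSF 5, HNRNP 7), 4 HNRNP genes lower, and the median was 0.013. The members' median GC content was 41.3% against 48.7% over all tested genes. With limma on FPKM 4 members were lower (HNRNP 1), 16 other splicing genes were higher, and the median was 0.00015. Without a filter 4 HNRNP genes were lower and 4 other splicing genes higher. With the study's thresholds on edgeR values 3 members were higher and 3 lower, and on DESeq2 values, an alternative chosen after seeing the data, 4 were higher and 3 lower. Leaving out each sample gave 4 to 8 members lower, 1 to 4 HNRNP genes lower, 4 to 6 other splicing genes higher and medians of -0.060 to -0.031, and for single members moved HNRNPH2 between -0.026 and 0.070 and HNRNPA1L2 between -0.042 and 0.046. The cause of these shifts was not tested. DESeq2 called 8 members higher and 10 lower.

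The sign turned for 7 genes. HNRNPD, called lower in the first place, was not called where it turned, and HNRNPH1, not called at first, was called higher with the GC trend removed. HNRNPA1L2 was at 0.044 with library size alone, 0.040 on FPKM, 0.013 with the GC trend removed, 0.046 without control replicate 2 and 0.0042 without knockdown replicate 3. HNRNPH1 was at 0.041, 0.036 and 0.10 and HNRNPU at 0.018, 0.012 and 0.069 with the first 3 of these settings. With the GC trend removed SRSF10 was at 0.013, HNRNPLL at 0.0065 and HNRNPD at 0.012, and HNRNPH2 was at -0.026 without knockdown replicate 3.

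The labels' replicate numbers are shared by the groups, but same-numbered samples deviated together only weakly (correlations of 0.049, -0.00051 and 0.092), so the numbers were not taken as pairs. With a replicate block 7 members were higher and 10 lower, 3 SRSF higher and 3 lower, and 4361 genes were called in all.

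With 3 samples per group, no exact test of a single value can pass 0.05, and SRSF12 and HNRNPCL4 were too low to test.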
